A study of Macaca fascicularis with 2 samples.

Results

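The genes described here are 50 genes of DNA replication and cell division, followed through single cells of fetal ovaries of Macaca fascicularis, the cynomolgus monkey. They were chosen by name, 18 as genes of S phase, 29 as genes of mitosis and 3 as transcription factors of the cell cycle, and 47 of them were found by symbol among the 18446 genes of the count table. All 18 S phase genes and all 3 transcription factors were in it, and 26 of the 29 mitotic genes. BUB1B, KIF23 and NUSAP1 were not matched to a row and have no value here.

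The cells came from the ovaries of 1 fetus at embryonic day 84 (E84) and 1 fetus at embryonic day 116 (E116), and the labels name no treatment or genetic change for either. Both ovaries of a fetus were dissociated and sequenced as 1 droplet library, in which each captured molecule carries a unique molecular identifier (UMI). Both libraries are in 1 table whose cell barcodes end in 1 or 2, and the ending of a stage is not stated, so the stages could not be compared and each ending serves as a batch with no label. With no replicate of any group, no test was made.

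A cell copies its genome in S phase and separates the copies in mitosis, and each phase has its own set of proteins. For S phase the MCM helicase is loaded on DNA by CDC6 and CDT1 and switched on by CDC45 and the GINS complex, while enzymes such as ribonucleotide reductase supply deoxynucleotides. For mitosis CDK1 and its cyclins start division, spindle motors and kinetochore proteins move the chromosomes, and the anaphase-promoting complex ends it. In the fetal ovary germ cells first divide by mitosis, then answer retinoic acid (RA), make a last round of DNA replication and enter meiotic prophase. There they recombine and stay arrested as oocytes, whereas some somatic cells of the ovary go on dividing.

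The table holds 20967 cells, 10621 of ending 1 and 10346 of ending 2, with 148824177 UMIs and a median of 3756 UMIs per cell. Clusters were built without the members and without further genes of the cell cycle, 172 listed genes in all, and were named from marker genes of cell types. Germ cell-like cells numbered 6526. Clustered again, they gave 254 mitotic-like cells with markers such as POU5F1 and NANOG, 1540 RA-responsive-like cells with STRA8 and REC8, 1319 meiotic-like cells with SYCP1 and SPO11, and 648 oogenesis-like cells with FIGLA and GDF9, while 2765 germ cells stayed unnamed. Of the RA-responsive-like cells, 710 shallow cells formed a sub-cluster named on 4 markers whose leading gene was HBB, a gene of red cells that also led the erythroid-like cluster. The mitotic-like name rests on pluripotency and early germ cell markers and not on genes of division. Batch and step were unevenly mixed, since 251 of the mitotic-like cells were of ending 1 and 627 of the oogenesis-like cells were of ending 2. The somatic classes ranged from 138 pericyte-like to 4829 granulosa-like cells, and the macrophage-like cluster also carried 9 lymphocyte markers. The summed level of DAZL and DDX4, which mark germ cells, was 326 to 738 CPM (UMIs scaled to a total of 1000000 per group) in the 4 germ cell steps. It was 11.2 to 46.4 CPM in the 7 somatic classes, with 43.7 CPM in granulosa-like and 20.7 CPM in stroma-like cells. Germ cell RNA was thus counted in somatic cells too, and the somatic levels below are not corrected for it. Scrublet, a doublet caller, marked 0 cells, which at this number of cells was not taken to mean that doublets were absent. There were 27 barcode sequences that occurred with both endings.

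Both sets of genes were highest in the RA-responsive-like germ cells and lower in every somatic class than in any germ cell step. Levels are the UMIs of a group of cells summed and scaled to CPM, and the ranges in brackets are exact 95% intervals, which hold the error of counting alone and nothing of the spread between fetuses. Values over the germ cell steps are in the order mitotic-like, RA-responsive-like, meiotic-like, oogenesis-like, and values over the somatic classes in the order granulosa-like, stroma-like, ovarian surface epithelium-like, endothelial-like, pericyte-like, macrophage-like, erythroid-like. The summed level of the 18 S phase genes was 983 CPM (950 to 1017), 2264 CPM (2239 to 2290), 1666 CPM (1638 to 1694) and 1745 CPM (1720 to 1770) over the germ cell steps. That of the 26 mitotic genes was 2644 CPM (2590 to 2699), 5554 CPM (5515 to 5593), 4243 CPM (4199 to 4287) and 2192 CPM (2164 to 2220) over the same steps. From meiotic-like to oogenesis-like cells the summed S phase level had a log2 ratio of 0.07 (0.04 to 0.10) and within ending 2 of 0.02 (-0.02 to 0.06), while the mitotic level was 1.94-fold lower, a log2 ratio of -0.95 (-0.98 to -0.93) and within ending 2 of -0.69 (-0.73 to -0.66). The summed S phase level rested on GINS2, which had 6543 of the 19120 S phase UMIs of oogenesis-like and 1152 of the 14059 of meiotic-like cells, and 11 of the 18 S phase genes had a ratio whose interval lay below 0. The mitotic-like cells had the lowest S phase level of the 4 steps.

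Over the somatic classes the S phase level was 366, 507, 501, 530, 635, 698 and 132 CPM. The intervals of stroma-like, surface epithelium-like and endothelial-like cells overlapped, as did those of pericyte-like and macrophage-like cells. The mitotic level was 709, 1043, 1375, 1115, 1250, 1589 and 272 CPM over the same classes, so that granulosa-like cells were the lowest of the tissue classes for both lists. Beta-globin HBB alone made up 467986 CPM of erythroid-like cells, which lowers the CPM of every other gene there.

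**Figure D1:**
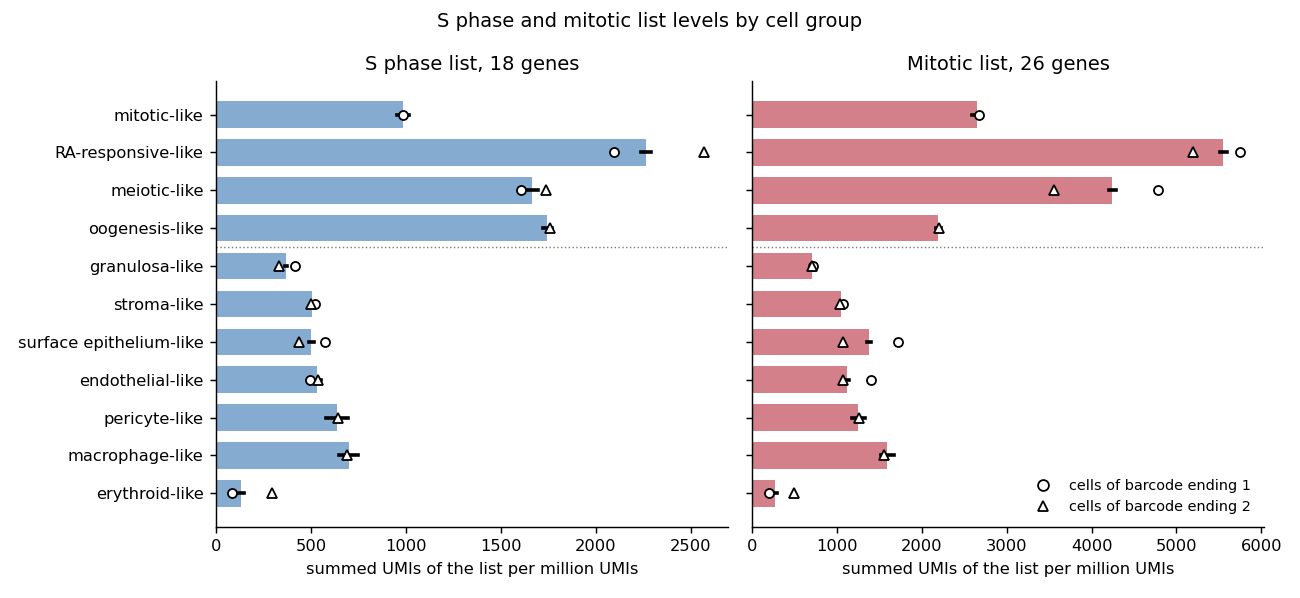
Summed level of the S phase list (left) and the mitotic list (right) by cell group, in CPM. Bars are all cells of a group, black lines the 95% counting interval, circles and triangles the cells of barcode ending 1 and 2 where a group has at least 50 of them; the RA-responsive-like bar is the highest in both panels, and the highest somatic levels are 698 CPM and 1589 CPM, in macrophage-like cells.

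The order of RA-responsive-like over meiotic-like cells held within each batch. In ending 1 the S phase level was 2097 against 1608 CPM and in ending 2 it was 2570 against 1738 CPM. For the mitotic genes it was 5750 against 4787 CPM in ending 1 and 5195 against 3561 CPM in ending 2. The 4675 cells with over 3000 detected genes, 22.3% of all, held 74.9% of the S phase and 74.3% of the mitotic UMIs, beside 64.2% of all UMIs. Without these cells, with the rest clustered anew, the log2 ratio of the mitotic level in RA-responsive-like over meiotic-like cells was 0.06 in place of 0.39, while that of the S phase level was 0.43 in place of 0.44. The RA-responsive-like sub-cluster led by HBB, at 4373 CPM of HBB, had 2093 CPM of the S phase and 5605 CPM of the mitotic genes, beside 2132 and 5758 CPM in the deep sub-cluster of 656 cells, at 722 CPM of HBB.

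The subunits of the MCM helicase, which unwinds DNA ahead of the fork, shared their highest step but not their later course. From meiotic-like to oogenesis-like cells MCM5 went from 41.7 to 60.8 CPM and MCM6 from 101 to 49.5 CPM. MCM7 measured 140 CPM (128 to 153), 354 CPM (344 to 364), 196 CPM (187 to 206) and 124 CPM (117 to 131) over the germ cell steps. Over the somatic classes it was 61, 51.3, 60.5, 59.5, 96.8, 82.7 and 18 CPM, highest in pericyte-like cells. MCM2, MCM3, MCM4, MCM5 and MCM6 were likewise highest in RA-responsive-like cells, at 117, 87.6, 299, 137 and 245 CPM, and all 6 subunits were above their meiotic-like level in both batches with intervals of the ratio that left out 0. MCM4 showed the widest gap of the 6, with 67.7 CPM in meiotic-like and 68.3 CPM in oogenesis-like cells.

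CDC45 and CDC6, which start and load the helicase, did not follow it. CDC45, its partner at the fork, measured 6.7 CPM, 46.5 CPM, 101 CPM and 15.3 CPM over the germ cell steps. CDC6, a loading factor, was also highest in meiotic-like cells, at 51.2 CPM beside 30.9 CPM in the step before, and CDC45 and CDC6 kept this order in both batches. CDT1, the other loading factor, was low, at 3.2, 11.9, 7.11 and 11.4 CPM over the steps.

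GINS2, a subunit of the GINS complex, was highest in oogenesis-like cells, by a wide margin. It measured 42.8 CPM (36.2 to 50.3), 104 CPM (98.5 to 109), 137 CPM (129 to 145) and 597 CPM (583 to 612) over the germ cell steps. Within ending 2, the batch that holds nearly all oogenesis-like cells, it was 606 CPM (591 to 621) there against 145 CPM (133 to 158) in meiotic-like and 100 CPM (91.6 to 110) in RA-responsive-like cells. Both oogenesis-like sub-clusters were above the other named steps, the deep one of 306 cells at 624 CPM and the shallow one of 342 cells at 239 CPM. The somatic levels of GINS2 were 13.3, 19.9, 20.2, 17, 21.8, 31.2 and 8.22 CPM, so that the oogenesis-like level was a log2 ratio of 4.26 above the highest of them.

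At the fork, PCNA, the sliding clamp of DNA polymerase, varied little over the last 3 germ cell steps. It measured 171 CPM (157 to 185), 376 CPM (366 to 386), 375 CPM (363 to 389) and 351 CPM (340 to 362) over the germ cell steps. Over the somatic classes it was 98, 124, 101, 136, 158, 153 and 22 CPM. RFC4, part of the loader that puts the clamp on DNA, instead peaked in meiotic-like cells. It measured 35.8, 97.3, 207 and 63.1 CPM over the steps, and 236 against 90 CPM in ending 1 and 170 against 111 CPM in ending 2 for meiotic-like against RA-responsive-like cells. Its somatic levels were 14.4, 21.8, 14.8, 15.3, 38.2, 33.1 and 7.16 CPM. FEN1, the nuclease that trims Okazaki fragments, had 145 UMIs in the whole table and was at most 4.13 CPM over the groups.

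The enzymes of nucleotide supply differed from each other. TYMS, which makes thymidylate, was 67.5 CPM (59.1 to 76.8), 212 CPM (204 to 220), 71.2 CPM (65.6 to 77.1) and 216 CPM (208 to 225) over the germ cell steps, so that it was high in the steps on either side of meiotic-like cells. Its highest level, in oogenesis-like cells, could not be told from that in RA-responsive-like cells at this depth, and the pattern held in ending 2 with 217, 88.1 and 219 CPM over the last 3 steps. In the somatic classes TYMS was 21.3, 53.9, 65.4, 85.7, 68.2, 58.8 and 11.7 CPM, lowest of the tissue classes in granulosa-like and highest in endothelial-like cells. RRM1, the large subunit of ribonucleotide reductase, was 33.8, 94.1, 140 and 76.4 CPM over the steps, highest in meiotic-like cells in both batches. Its somatic levels were 46.3, 71.1, 63.9, 57.8, 58.6, 53.3 and 10.3 CPM. RRM2, the small subunit of the same enzyme, was 49.5 CPM in meiotic-like cells and higher, at 78.1 CPM (62.4 to 96.5), in macrophage-like cells, where 85 of its UMIs lay. TK1, a thymidine salvage kinase, and CHAF1B, which places histones on new DNA, had 42 and 233 UMIs in the whole table and were at most 1.16 and 5.21 CPM over the groups.

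**Figure D2:**
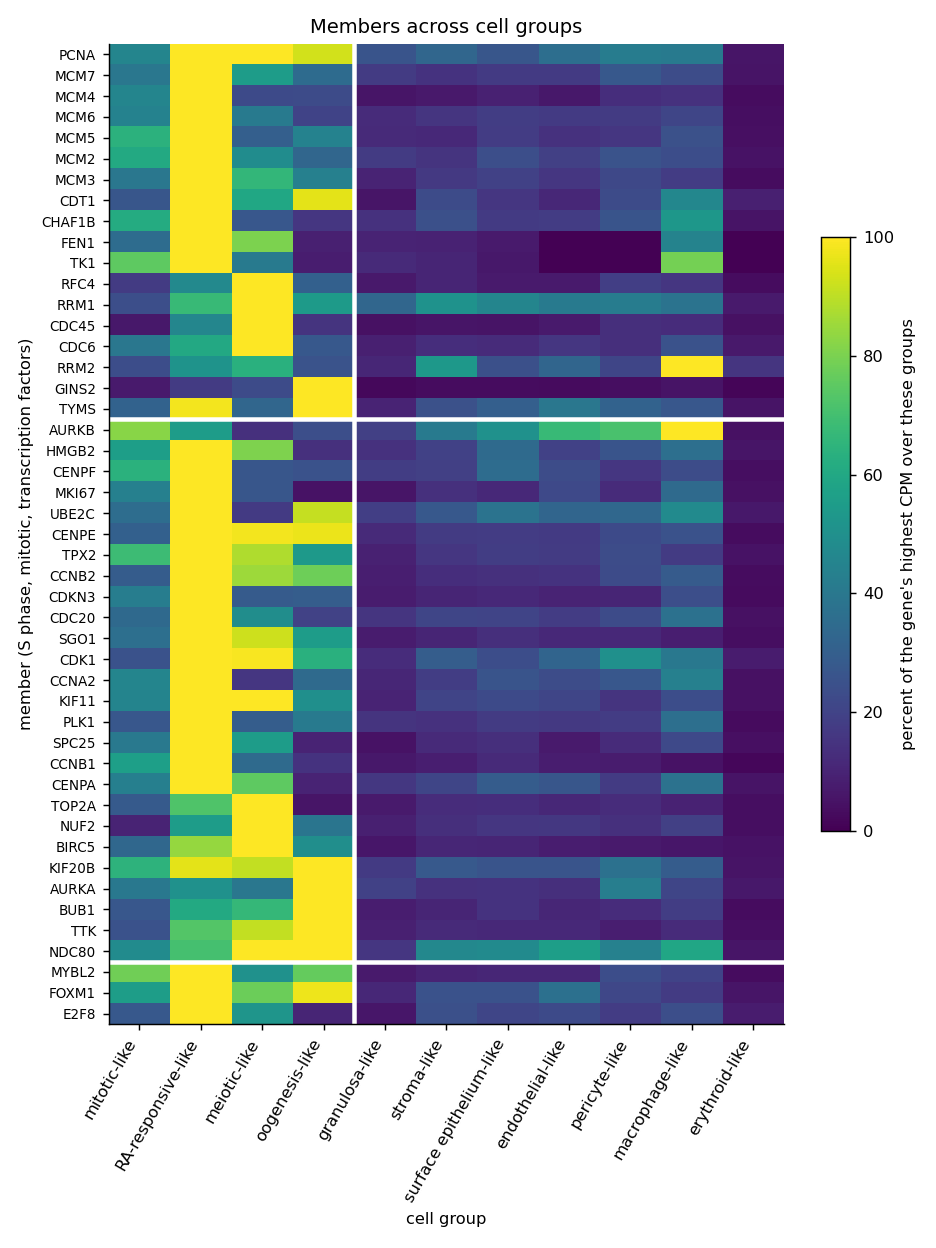
Level of each of the 47 members in 4 germ cell steps and 7 somatic classes, as percent of that gene's highest CPM over these groups (colour), with S phase genes above, mitotic genes in the middle and transcription factors below, sorted by the germ cell step with the highest level. RRM2 and AURKB are the 2 rows whose brightest cell lies in a somatic class, macrophage-like cells, and erythroid-like cells are dark throughout.

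Among the kinases and cyclins that drive entry into mitosis, the cyclins split. CCNB2, a B-type cyclin, was 53.9 CPM (46.4 to 62.2), 185 CPM (178 to 192), 158 CPM (149 to 166) and 144 CPM (137 to 152) over the germ cell steps. CCNA2, the A-type cyclin of S phase and early mitosis, was 52.7, 116, 18.5 and 40 CPM, and in meiotic-like cells it was 18.5 CPM in ending 1 and 18.4 CPM in ending 2. CCNB1, the other B-type cyclin, was 40.8, 72.5, 25.1 and 10.5 CPM. CDK1, the kinase that these cyclins bind, was 29.7, 117, 116 and 74.4 CPM, with overlapping RA-responsive-like and meiotic-like intervals, although in ending 1 the meiotic-like level was the higher, 112 against 95.8 CPM, and in ending 2 the lower, 122 against 155 CPM.

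CDKN3, a phosphatase that acts on CDK1, was 77.4, 183, 52.8 and 53.7 CPM over the steps. Over the somatic classes it was 13.7, 18.7, 21.1, 18, 19.1, 44.1 and 5.04 CPM, highest in macrophage-like cells. The somatic levels of CCNB2 were 15.6, 24, 25.6, 27.3, 42.3, 53.3 and 6.1 CPM. PLK1, a kinase of mitotic entry and spindle assembly, was 25.3, 93.2, 27.4 and 37.9 CPM over the steps.

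The Aurora kinases left the pattern of the list. AURKA, which works at spindle poles, was 52.4, 66.2 and 51.8 CPM in the earlier steps and 131 CPM in oogenesis-like cells, and in ending 2 it was 132 CPM there against 53.9 CPM in meiotic-like cells. AURKB, the kinase of the chromosomal passenger complex, was the only member with its highest germ cell level in mitotic-like cells, at 18.9 CPM against 12.7, 3.2 and 5.57 CPM in the later steps. Within ending 1 its RA-responsive-like and mitotic-like levels could not be told apart at this depth, and its 23 CPM (14.9 to 33.9) in macrophage-like cells rested on 25 UMIs. BIRC5, its partner in that complex, was 24.5, 62, 73.5 and 36.2 CPM, and it depended on the batch, with 109 CPM in meiotic-like cells of ending 1 and 29.4 CPM in those of ending 2, where oogenesis-like cells had 36.5 CPM.

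At the kinetochore, CENPF and CENPE parted after the RA-responsive-like step. CENPF, a large protein of the outer kinetochore and the G2 nucleus, was 378 CPM (358 to 399), 591 CPM (578 to 604), 159 CPM (151 to 168) and 148 CPM (141 to 156) over the germ cell steps. CENPE, a kinesin that links kinetochores to microtubules, was 64.9, 213, 209 and 207 CPM, with overlapping intervals over the last 3 steps. Somatic levels of CENPF were 107, 112, 210, 138, 92.7, 138 and 22.5 CPM, highest in surface epithelium-like cells. CENPE was 25.5, 37.4, 37.7, 36.5, 47.7, 53.3 and 7.42 CPM in them, highest in macrophage-like cells.

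The 3 members of the NDC80 complex, which grips the microtubule, did not move together. NUF2 was highest in meiotic-like cells, at 185 CPM against 102 CPM in RA-responsive-like cells, in both batches. SPC25 was highest in RA-responsive-like cells, at 87.4 CPM, and 8.85 CPM in oogenesis-like cells, and NDC80 itself was 18, 26.3, 37.2 and 37.2 CPM over the steps. CENPA, the histone of the centromere, was 20.1, 46.6, 35.1 and 4.65 CPM. The checkpoint kinases BUB1 and TTK were higher in each later step, BUB1 with 28.8, 64.5, 70.7 and 106 CPM, of which the middle values had overlapping intervals, and TTK with 24.7, 71.3, 88.5 and 97.5 CPM, though in ending 2 TTK was 99.8 CPM in meiotic-like and 97.7 CPM in oogenesis-like cells. SGO1, which guards centromeric cohesion, was 56.8, 155, 143 and 85.9 CPM.

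Of the spindle genes KIF20B kept its level into oogenesis-like cells, and TPX2 and KIF11 were lower there. KIF20B, a kinesin of late division, was 149, 221, 209 and 230 CPM over the steps and, over the somatic classes, 39.5, 64.4, 59.6, 59.3, 85.9, 67 and 12.5 CPM. TPX2, which targets AURKA to the spindle, was 145, 212, 187 and 115 CPM. Its somatic levels were 19.1, 33.3, 38.2, 36.7, 49.1, 36.7 and 10.1 CPM. KIF11, the motor that pushes spindle poles apart, was 49.2, 109, 109 and 54.4 CPM.

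UBE2C and CDC20 both serve the anaphase-promoting complex, UBE2C as its ubiquitin-conjugating enzyme and CDC20 as its activator, and they took opposite courses into oogenesis-like cells. UBE2C was 85 CPM (75.5 to 95.3), 238 CPM (230 to 246), 40.6 CPM (36.5 to 45.2) and 217 CPM (208 to 225) over the germ cell steps. CDC20 was 53.3, 156, 76.7 and 30.9 CPM. In ending 2 alone UBE2C was 294, 36.6 and 221 CPM over the last 3 steps, again lowest in meiotic-like cells. Somatic levels of UBE2C were 44, 65.3, 90.7, 77.8, 79.1, 114 and 15.1 CPM. All classes but erythroid-like cells were thus above the 40.6 CPM of meiotic-like germ cells, granulosa-like cells only slightly. CDC20 was 24.3, 32.8, 31.7, 27.9, 35.4, 57.9 and 6.89 CPM in the same classes.

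The chromatin proteins of the mitotic list showed its widest differences. TOP2A, the topoisomerase that untangles sister DNA, was 297 CPM (279 to 316), 760 CPM (746 to 775), 1050 CPM (1028 to 1072) and 59.8 CPM (55.3 to 64.5) over the germ cell steps. The oogenesis-like level was below that of every somatic class but erythroid-like cells, at 76.7, 133, 137, 115, 134, 100 and 38.2 CPM. HMGB2, a DNA-bending protein, was 667, 1186, 958 and 164 CPM. Both depended on the batch in meiotic-like cells, TOP2A with 1285 CPM in ending 1 and 754 CPM in ending 2, HMGB2 with 1214 and 638 CPM, and in ending 2 alone the oogenesis-like levels of 58.4 and 163 CPM were still far lower. HMGB2 in somatic cells was 168, 231, 408, 230, 308, 431 and 66.3 CPM, highest in macrophage-like and surface epithelium-like cells. MKI67, a coat protein of mitotic chromosomes widely used as a mark of cycling cells, was 178, 409, 110 and 20.3 CPM over the steps and, over the somatic classes, 22.5, 57.5, 47.8, 89.8, 50.4, 141 and 18 CPM, so that oogenesis-like and granulosa-like levels were close.

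Of the transcription factors, MYBL2, which acts on G2 and mitosis genes, was 99.6, 127, 64.1 and 96.8 CPM over the steps, and FOXM1, which acts on the same class of genes, was 17.8, 32, 24.8 and 31.2 CPM. E2F8, a repressor of the E2F family, was 8.44, 30.6, 16 and 3.19 CPM. In the somatic classes MYBL2 was 9.06, 12.5, 13.6, 13.7, 30, 25.7 and 4.24 CPM, all below the lowest germ cell step. FOXM1 was 3.51, 8.06, 8.05, 11.8, 6.82, 5.51 and 1.86 CPM in them, highest in endothelial-like cells.

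For the other members the range over the somatic classes is given, and for some of them it reached above the lowest germ cell step. Over all members, macrophage-like cells held the top somatic level of 10 of 18 S phase and 17 of 26 mitotic genes. The share over all genes was not computed for the somatic classes, so these counts have no background. CDT1, TK1, FEN1 and CHAF1B are among the 10, at only 5.51, 0.918, 1.84 and 2.76 CPM in macrophage-like cells. Somatic levels ran from 5.83 to 30 CPM for MCM2, 2.92 to 19.1 CPM for MCM3, 10.1 to 42.2 CPM for MCM4, 5.57 to 34 CPM for MCM5, 8.75 to 51.4 CPM for MCM6, 4.51 to 13.6 CPM for CDC45, 3.45 to 12.9 CPM for CDC6 and 0.697 to 5.51 CPM for CDT1. Among the kinases and cyclins they ran from 9.01 to 58.6 CPM for CDK1, 5.04 to 50.5 CPM for CCNA2, 1.33 to 8.72 CPM for CCNB1, 2.65 to 34 CPM for PLK1 and 8.22 to 55.9 CPM for AURKA. The lower end was that of erythroid-like cells in all of these but CDT1, which was lowest in granulosa-like cells, and CDC45, which was 4.51 CPM in both. At the kinetochore and spindle they ran from 3.45 to 19.3 CPM for BUB1, 3.45 to 11.9 CPM for TTK, 5.57 to 20.6 CPM for SGO1, 7.16 to 34.9 CPM for NUF2, 2.12 to 22 CPM for NDC80, 3.71 to 19.3 CPM for SPC25, 2.39 to 17.5 CPM for CENPA, 3.45 to 7.78 CPM for BIRC5 and 5.04 to 25.7 CPM for KIF11, and E2F8 ran from 1.87 to 7.42 CPM.

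**Figure D3:**
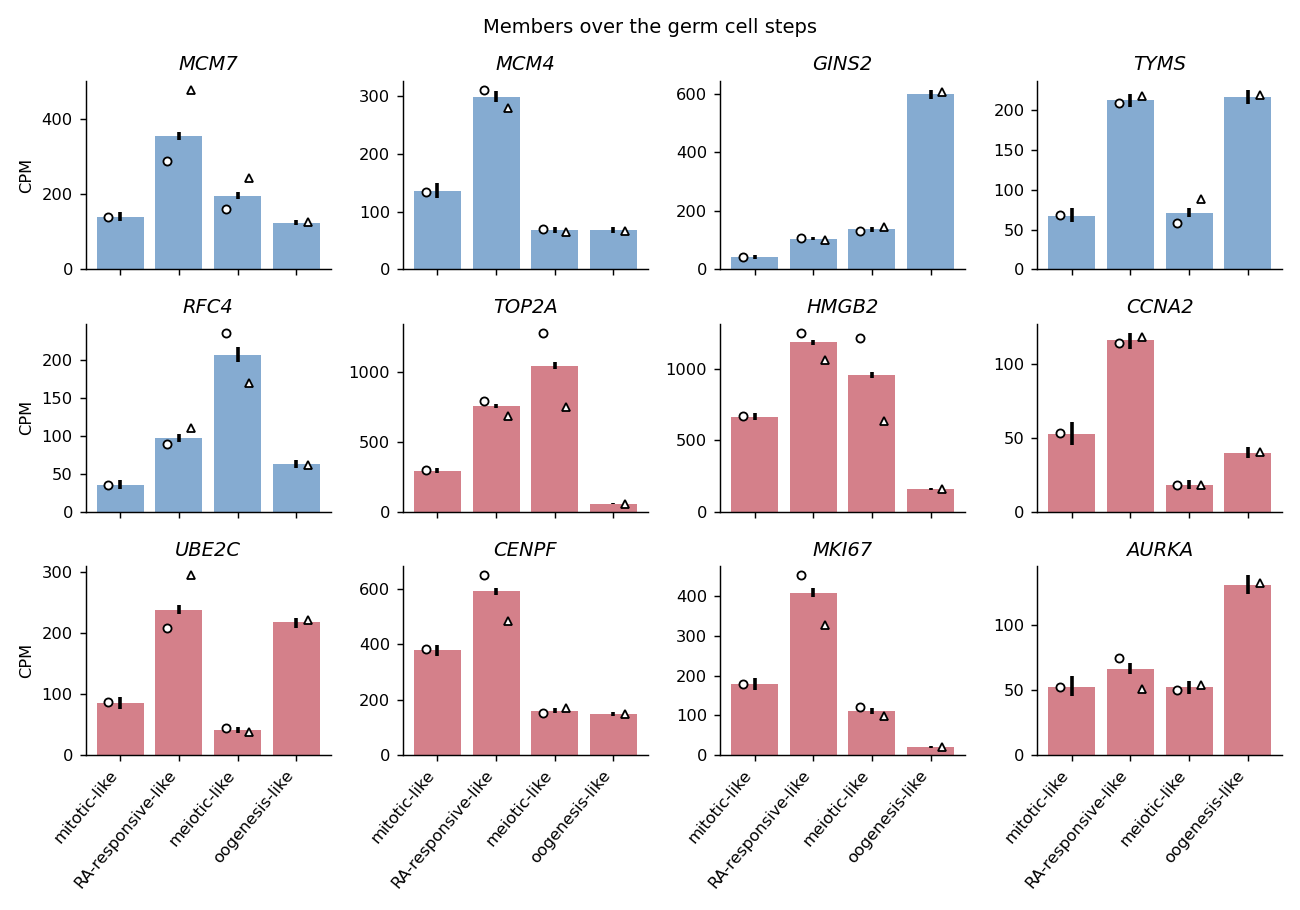
CPM of 12 members over the 4 germ cell steps, S phase genes in blue and mitotic genes in red, with 95% counting intervals as black lines and cells of barcode ending 1 (circles) and 2 (triangles) beside them. GINS2 rises to 597 CPM in oogenesis-like cells, MCM4, MKI67 and CENPF are highest in RA-responsive-like cells, TOP2A and RFC4 in meiotic-like cells, and UBE2C, TYMS and CCNA2 dip in meiotic-like cells.

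Summed up over members, 11 of 18 S phase genes were highest in RA-responsive-like, 5 in meiotic-like, 2 in oogenesis-like and 0 in mitotic-like cells. Of the 26 mitotic genes 17 were highest in RA-responsive-like, 3 in meiotic-like (TOP2A, NUF2 and BIRC5), 5 in oogenesis-like (BUB1, TTK, AURKA, KIF20B and NDC80) and 1 in mitotic-like cells, and all 3 transcription factors were highest in RA-responsive-like cells. Over all genes measured in these cells the shares were 21.2% in mitotic-like, 20.5% in RA-responsive-like, 33% in meiotic-like and 25.2% in oogenesis-like cells. For PCNA, TYMS, CENPE, CDK1, KIF11, KIF20B, NDC80 and FOXM1, and for the low CDT1, TK1, FEN1 and CHAF1B, the interval of the highest step over the next held 0.

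Changes of at least 2-fold, with 10 CPM added to both levels and at least 20 UMIs in the groups compared, were counted next. From mitotic-like to RA-responsive-like cells 10 of 17 S phase genes, 16 of 26 mitotic genes and 1 of 3 transcription factors were higher and 0 were lower, against 6.92% of all genes higher and 3.94% lower. Of the genes past the fold, the log2 ratios of the CPM were widest for CDC45 at 2.80 (2.20 to 3.47), NUF2 at 2.47 (2.11 to 2.86), CDK1 at 1.97 (1.69 to 2.28) and PLK1 at 1.88 (1.57 to 2.21). The median log2 ratio was 1.10 over the S phase and 1.08 over the mitotic genes beside 0.15 over all genes. Leaving out the cells of highest Scrublet scores and clustering the rest anew gave other and larger groups, of 422 mitotic-like and 1999 RA-responsive-like cells. Between these, 6 of 18, 12 of 26 and 0 of 3 were higher and 0 lower, E2F8 no longer among them. Beside them 2.74% of all genes were higher. Within ending 1, the batch of the mitotic-like cells, 7 of 17 S phase and 15 of 26 mitotic genes were at least 2-fold higher. There 0 were lower, and 6.28% of all genes were higher and 4% lower. The RA-responsive-like cells also included a sub-cluster of 656 cells led by MKI67, LBR, SPC25 and CENPF, although those genes were left out of the clustering, and whether the step was drawn in part along the cell cycle was not tested.

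From RA-responsive-like to meiotic-like cells the members moved in both directions, against 5.43% of all genes at least 2-fold higher and 3.99% lower. Of 18 S phase genes 1 was higher, RFC4, at a log2 ratio of 1.09 (0.98 to 1.19), and 4 were lower, MCM4 at -2.15 (-2.27 to -2.02), MCM5 at -1.72 (-1.89 to -1.56), TYMS at -1.57 (-1.70 to -1.45) and MCM6 at -1.28 (-1.39 to -1.17). Of 26 mitotic genes 0 were higher and 7 were lower. The share of members higher was thus near or below that of all genes, and the share lower above it. The lower mitotic genes were CCNA2 at -2.64 (-2.89 to -2.41), UBE2C at -2.55 (-2.72 to -2.39), CENPF at -1.89 (-1.98 to -1.81), MKI67 at -1.89 (-1.99 to -1.79), CDKN3 at -1.79 (-1.94 to -1.64), PLK1 at -1.77 (-1.98 to -1.56) and CCNB1 at -1.53 (-1.75 to -1.31). The median over the list was -0.23 for the S phase and -0.26 for the mitotic genes beside 0.02 for all genes, with members on both sides. Over all cells 9 of the 18 S phase ratios had an interval below 0 and 6 above it, and 16 and 5 of the 26 mitotic ratios. Within both batches, 8 S phase genes had an interval below 0 in meiotic-like cells and 5 above it (RRM1, GINS2, CDC45, CDC6 and RFC4), and 11 mitotic genes were below and 2, TOP2A and NUF2, above. With the cells of over 3000 genes left out, an alternative added after the results were known, 1 S phase gene was higher and 3 lower, and 1 mitotic gene, TOP2A, was higher and 7 lower, 6 of them from the 7 named, beside 8.21% of all genes higher and 7% lower in those cells.

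From meiotic-like to oogenesis-like cells 2 of 17 S phase genes were at least 2-fold higher and 3 lower, and 2 of 26 mitotic genes were higher and 7 lower, against 8.01% of all genes higher and 10.7% lower. The shares of members higher lay near that of all genes. The median log2 ratio was -0.47 over the S phase and -0.35 over the mitotic genes beside -0.11 over all genes. The higher ones were GINS2 at a log2 ratio of 2.13 (2.04 to 2.22), TYMS at 1.60 (1.47 to 1.73), UBE2C at 2.41 (2.25 to 2.58) and AURKA at 1.34 (1.18 to 1.50). The lower S phase genes were CDC45 at -2.72 (-2.97 to -2.48), CDC6 at -1.85 (-2.12 to -1.58) and RFC4 at -1.71 (-1.84 to -1.58). All of these had been higher in meiotic-like than in RA-responsive-like cells, though with 10 CPM added only RFC4 had passed the fold. The lower mitotic genes were TOP2A at -4.13 (-4.25 to -4.02), CENPA at -2.91 (-3.37 to -2.48), HMGB2 at -2.55 (-2.63 to -2.48), SPC25 at -2.45 (-2.78 to -2.12), MKI67 at -2.44 (-2.66 to -2.23), NUF2 at -1.37 (-1.50 to -1.25) and CDC20 at -1.31 (-1.50 to -1.12). Within ending 2 the counts were 2 higher and 4 lower of 15 S phase genes and 2 higher and 6 lower of 26 mitotic genes. Beside them 7.96% of all genes were higher and 11.3% lower. Without the cells of over 3000 genes 4 S phase and 11 mitotic genes were lower, including all 10 named here, and GINS2, TYMS and UBE2C but not AURKA were higher, while the share of all genes lower was 22.1% and higher 10.4%.

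**Figure D4:**
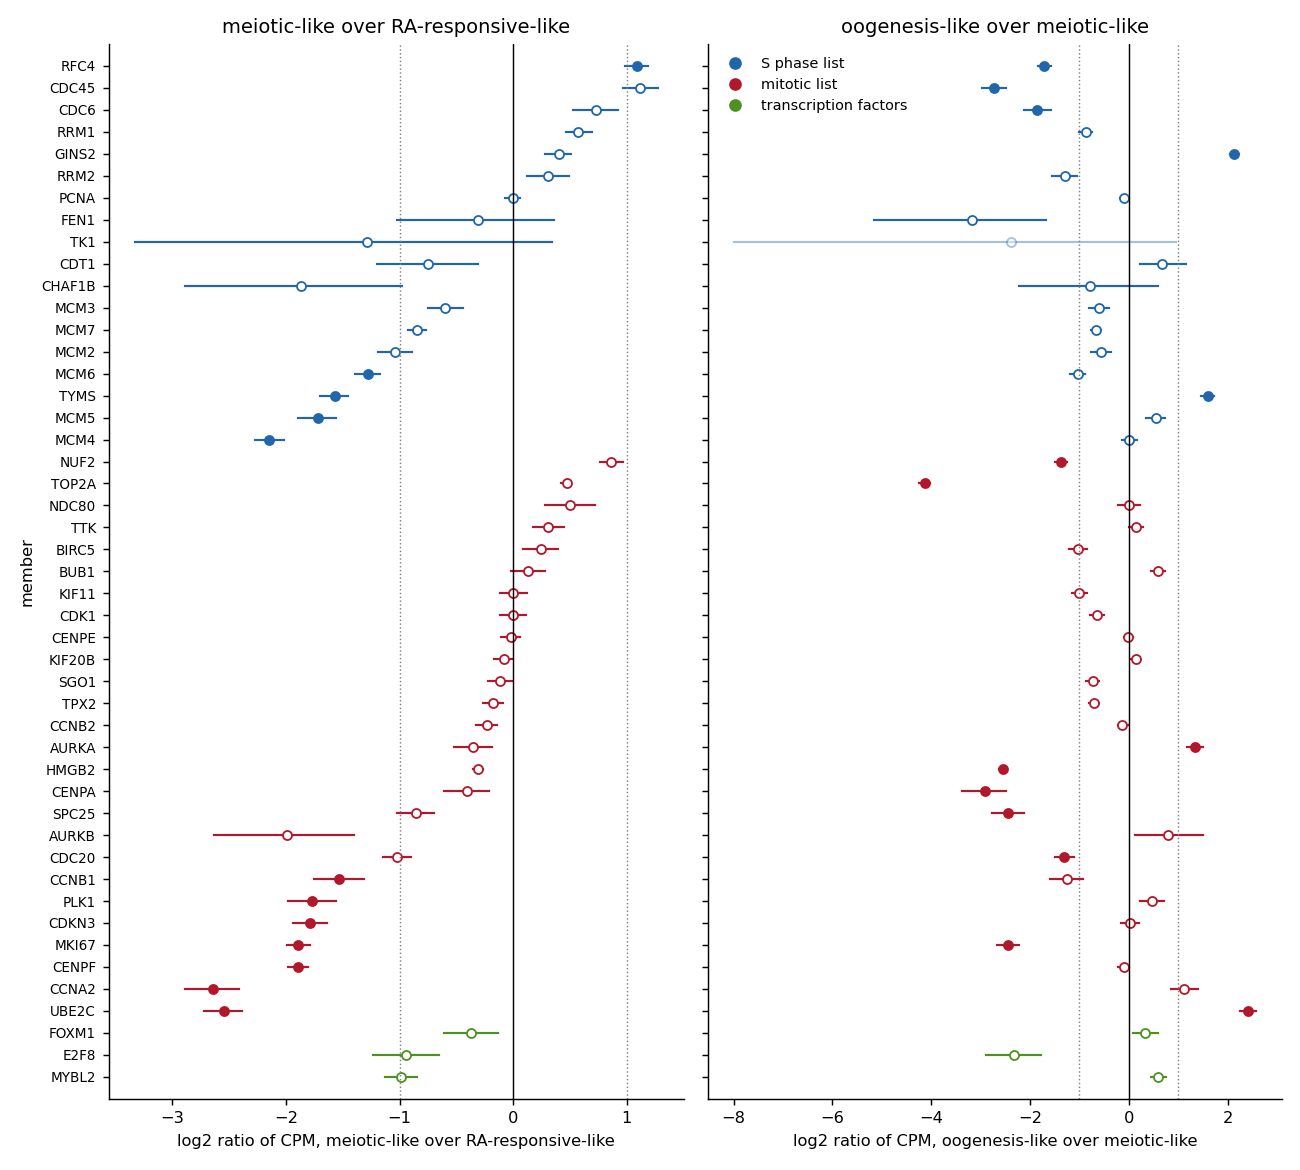
Log2 ratio of CPM of each member for meiotic-like over RA-responsive-like cells (left) and oogenesis-like over meiotic-like cells (right), with 95% counting intervals; filled points are at least 2-fold apart with 10 CPM added, a faint point has under 20 UMIs, and dotted lines mark a log2 ratio of 1 in either direction. CCNA2 and UBE2C lie lowest on the left and TOP2A on the right, while GINS2 and UBE2C lie highest on the right.

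The balance of the summed lists differed in oogenesis-like cells. The mitotic genes made up 72.9% (72.1 to 73.7) of the S phase and mitotic UMIs together in mitotic-like, 71% (70.8 to 71.3) in RA-responsive-like, 71.8% (71.4 to 72.2) in meiotic-like and 55.7% (55.2 to 56.2) in oogenesis-like cells. The difference between RA-responsive-like and oogenesis-like cells was 15.4 percentage points (14.8 to 15.9), and within ending 2, where the RA-responsive-like share was 66.9%, it was 11.3. Over the somatic tissue classes the share lay between 66% in granulosa-like and 73.3% in surface epithelium-like cells. GINS2 was higher and TOP2A and HMGB2 were lower in oogenesis-like cells, and these genes hold many of the UMIs of their lists. Over members the balance went the other way, since from meiotic-like to oogenesis-like cells the median log2 ratio was -0.47 for the S phase and -0.35 for the mitotic genes, and within ending 2 -0.82 and -0.24.

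Among the somatic classes, granulosa cells, which surround the oocyte, were set against stroma, and the surface epithelium against granulosa cells. The log2 ratio of granulosa-like over stroma-like cells was -0.47 (-0.51 to -0.44) for the S phase and -0.56 (-0.58 to -0.53) for the mitotic level, negative in both batches. With cells of over 20% mitochondrial UMIs left out the mitotic ratio was -0.16. At least 2-fold lower in granulosa-like cells were RRM2 at 8.39 against 41.5 CPM, TYMS at 21.3 against 53.9 CPM and MKI67 at 22.5 against 57.5 CPM, 3 members in all with 0 higher, against 3.74% of all genes higher and 3.18% lower. With 46 members tested, this count was close to that background. Without the cells of over 3000 genes, or without those of the highest Scrublet scores, RRM2 alone was left. With 1 CPM added in place of 10 there were 9, for which no share over all genes is given.

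The surface epithelium-like cells had log2 ratios over granulosa-like cells of 0.45 (0.41 to 0.49) for the S phase and 0.95 (0.93 to 0.98) for the mitotic level, which was 1.26 in ending 1 and 0.60 in ending 2. Of the members HMGB2 and TYMS were at least 2-fold higher and 0 lower, against 1.92% of all genes higher and 1.54% lower. With 1 CPM added there were 12 past the fold, again without a share over all genes. Within ending 1 the counts were 1 of 14 S phase and 6 of 26 mitotic genes higher, against 1.97% of all genes, and within ending 2 they were 0 of 16 and 1 of 26, against 2.48%. Without the cells of over 3000 genes TYMS alone was left. The granulosa-like class was itself uneven, with CENPF at 63.4 CPM and MKI67 at 5.35 CPM in its cluster of 970 cells, all of ending 2, and CENPF at 203 CPM and MKI67 at 53.8 CPM in its cluster of 597 cells. Lowest among the deep clusters was an unnamed one of 822 cells led by CBLN2 and LYPD1, all of ending 2, with 253 CPM of the S phase and 374 CPM of the mitotic genes at a median of 7978 UMIs per cell.

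To compare single cells of unlike depth, each cell was thinned to 1000 UMIs and shallower cells were left out, 67 of RA-responsive-like, 115 of meiotic-like, 145 of oogenesis-like, 0 of mitotic-like and 9 to 242 of the cells of each somatic class. At least 5 mitotic UMIs of these 1000 were found in 49.6% (47 to 52.1) of RA-responsive-like, 44.8% (41.9 to 47.6) of meiotic-like, 15.4% (11.2 to 20.4) of mitotic-like and 7.75% (5.57 to 10.4) of oogenesis-like cells. The order of these steps depended on depth and limit. At 2000 UMIs the share was 85.4% (82.8 to 87.8) in meiotic-like and 79.7% (77.3 to 82) in RA-responsive-like cells, and 37.5% (32.6 to 42.6) in oogenesis-like and 30.9% (25.2 to 37.1) in mitotic-like cells, with 489, 381, 272 and 5 cells left out. At least 2 mitotic UMIs of 1000 were found in 89% of meiotic-like and 86.2% of RA-responsive-like cells. In somatic cells the share with at least 5 of 1000 was 8.12% of macrophage-like, 6.78% of surface epithelium-like, 5.08% of endothelial-like, 3.3% of stroma-like, 3.1% of pericyte-like, 1.96% of granulosa-like and 0.615% of erythroid-like cells, and 0.244% in the cluster led by CBLN2. The DAZL and DDX4 level of the somatic classes, 11.2 to 46.4 CPM, was the only gauge of germ cell RNA in them. How much free RNA added to these shares was not tested. Without thinning the share was 88.8% in RA-responsive-like and 13.7% in stroma-like cells, at median depths of 5164 and 3715 UMIs.

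By the share that the top cells held, the mitotic UMIs were spread most evenly over meiotic-like cells. They were concentrated in few cells of most somatic classes. The 5% of cells with most of them held 11.9% of the mitotic UMIs in meiotic-like, 14.1% in RA-responsive-like, 15.9% in oogenesis-like and 25.7% in mitotic-like cells, but 44.5% in granulosa-like, 51.8% in surface epithelium-like, 54.1% in stroma-like and 57.3% in endothelial-like cells. The variance of the mitotic UMIs per cell over their mean, which is 1 for pure counting, was 1.45 in meiotic-like, 1.47 in oogenesis-like, 2.58 in RA-responsive-like and 3.85 in mitotic-like cells, and from 2.27 in pericyte-like to 9.92 in endothelial-like cells of the soma. For the S phase genes it stayed between 1.19 and 1.98 in all of these groups. At 2000 UMIs the variance of the mitotic UMIs over their mean was 2.05 in meiotic-like and 1.76 in oogenesis-like cells, the reverse order. A lower mean by itself raises the share held by the top cells. At 1000 UMIs the mean was 4.47 in meiotic-like and 1.85 in oogenesis-like cells. Whether the mean accounts for the gap between these steps, or between germ and somatic cells, was not tested.

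The 143 stroma-like cells with at least 5 mitotic UMIs had 1.42 S phase UMIs each against 0.432 in the other stroma-like cells. Their summed DAZL and DDX4 level was 19.2 against 20.5 CPM and their median depth was 6757 against 3828 UMIs. Of them 6.29% were among the 8% of cells with the highest Scrublet scores, beside 4.89% of the others. In granulosa-like cells the same comparison gave 0.641 against 0.34 S phase UMIs and in surface epithelium-like cells 0.885 against 0.469. The 25 such endothelial-like cells had 1.52 against 0.45 S phase UMIs, with 20% against 13.1% among the highest Scrublet scores and a DAZL and DDX4 level of 18.8 against 10 CPM, and the part of doublets in them was not tested. The 39 such mitotic-like cells had 1.67 against 0.86 S phase UMIs, at a depth of 17280 against 11654 UMIs. Meiotic-like cells differed from this, with 1.75 S phase UMIs in the cells of at least 5 mitotic UMIs and 1.69 in the rest, and at a depth of 3057 against 3477 UMIs.

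**Figure D5:**
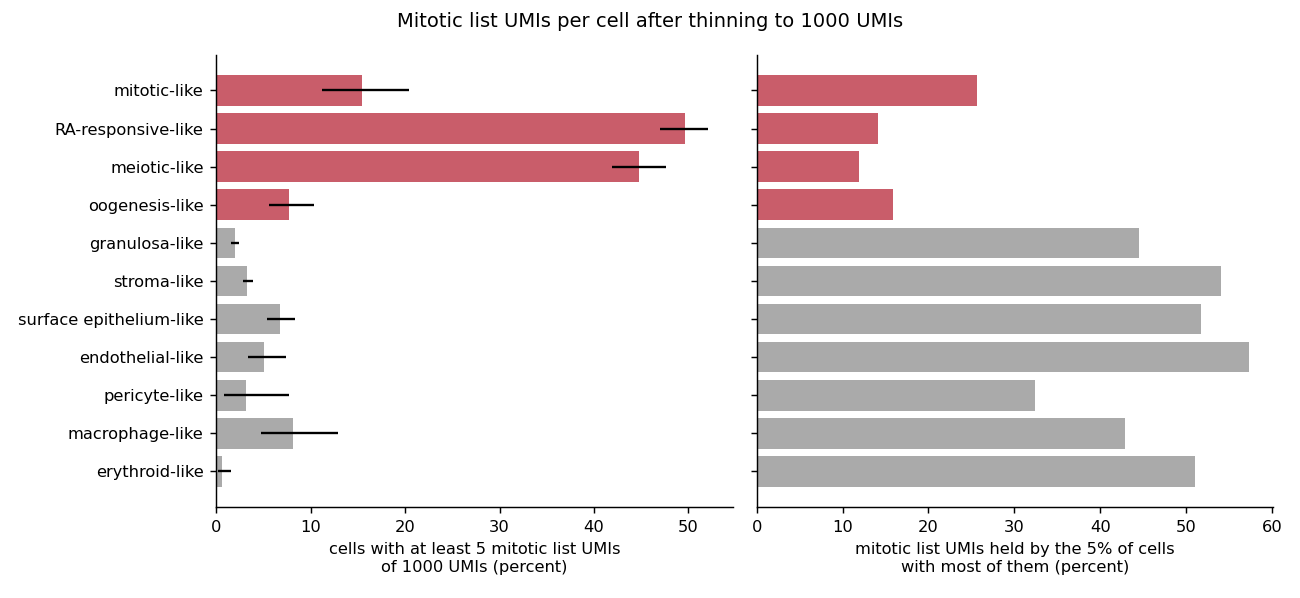
Mitotic list UMIs per cell after thinning to 1000 UMIs by cell group, germ cell steps in red and somatic classes in grey. Left, percent of cells with at least 5 of them with exact 95% intervals, 49.6% in RA-responsive-like cells; right, percent of the UMIs held by the 5% of cells with most of them, 11.9% in meiotic-like and 57.3% in endothelial-like cells.

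Other genes of the same pathways were followed as lists. Of 35 other S phase genes with a value, 11 were at least 2-fold higher and 0 lower in RA-responsive-like over mitotic-like cells, 2 higher and 4 lower in meiotic-like over RA-responsive-like cells, and 1 higher and 10 lower in oogenesis-like over meiotic-like cells. Beside them 6.92, 5.43 and 8.01% of all genes were higher and 3.94, 3.99 and 10.7% lower in these comparisons, so that the counts higher in meiotic-like and oogenesis-like cells were near or below the background. The widest of the first comparison were CENPU at 454 against 91.7 CPM, CLSPN at 291 against 73.4 CPM and GMNN, which blocks CDT1, at 185 against 50.9 CPM. In meiotic-like cells CHAF1A, a partner of CHAF1B, was 216 against 94 CPM in the step before, while UNG, which removes uracil from DNA, was 89 against 315 CPM and CDCA7 28.4 against 97.1 CPM. HELLS, a chromatin remodeller, was 600 CPM in meiotic-like and 76.6 CPM in oogenesis-like cells. CCNE2, the cyclin E that starts replication, was 37.4, 151 and 5.66 CPM over the last 3 germ cell steps, and UHRF1, which maintains DNA methylation, was 47, 11.7 and 118 CPM.

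Of 44 other genes of G2 and mitosis tested, 14 were at least 2-fold higher and 0 lower in RA-responsive-like over mitotic-like cells, against 6.92% and 3.94% of all genes. In meiotic-like over RA-responsive-like cells 4 were higher and 4 lower, against 5.43% and 3.99% of all genes. Into the oogenesis-like step 1 of 43 was higher and 20 were lower, against 8.01% and 10.7% of all genes. The median log2 ratio was -0.96 beside -0.11 over all genes. PTTG1, the securin that the anaphase-promoting complex destroys, was 409, 113 and 378 CPM over the last 3 steps, and KNL1, a kinetochore scaffold, was 401, 744 and 107 CPM. CENPK, a centromere protein, was 177, 513 and 87.9 CPM, and KIF18A, a kinesin that aligns chromosomes, was 44.3, 131 and 17 CPM over these steps. MAD2L1, of the spindle checkpoint, went from 66.7 to 286 CPM over the first 2 steps. ECT2, which acts in cytokinesis, was 204 CPM in meiotic-like cells against 70.7 CPM in the step before, while LBR was 91.4 against 307 CPM and ANP32E 46.6 against 125 CPM. Between granulosa-like and stroma-like cells 0 of the other S phase and 0 of the other mitosis genes were 2-fold apart. Of all genes 3.74% were higher and 3.18% lower. Between surface epithelium-like and granulosa-like cells both counts were again 0, against 1.92% and 1.54%. Within batches some other mitosis genes passed the fold. In granulosa-like over stroma-like cells 1 was higher in each ending, against 4.33% and 4.28% of all genes. In surface epithelium-like over granulosa-like cells 3 of 44 were higher in ending 1, against 1.97%, and 0 in ending 2.

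A list drawn up as germline relatives of members had 9 genes in the table. By the same fold 4 were higher and 0 lower in RA-responsive-like over mitotic-like cells, against 6.92% and 3.94% of all genes. Then 3 were higher and 1 lower in meiotic-like cells, against 5.43% and 3.99%, and 0 and 4 in oogenesis-like cells, against 8.01% and 10.7%. With 9 genes, 1 is near the background. Not all were particular to germ cells. CENPC was 59.5 to 148 CPM in the germ cell steps and 67.2 to 85.7 CPM in the somatic classes other than erythroid-like cells. From mitotic-like to RA-responsive-like cells CCNA1 went from 11.4 to 1.59 CPM and KIF15 from 60.3 to 33.6 CPM, short of the fold with 10 CPM added. CCNB3, a B-type cyclin, was 84.5, 211 and 50.2 CPM over the last 3 steps, where CCNA2 was 116, 18.5 and 40 CPM. SGO2, the shugoshin of meiosis, was 111, 242 and 50.6 CPM, and MCMDC2, an MCM-like protein of recombination, was 10.8, 43.5 and 2.37 CPM. AURKC, the Aurora kinase of germ cells, was 112, 61.6 and 117 CPM, and HMGB3 was 413, 157 and 295 CPM. In somatic classes CCNB3 was 1.84 to 6.52 CPM and AURKC 2.99 to 10.9 CPM.

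The last list holds regulators of G1 and of rest. Of 20 tested, 2 were at least 2-fold higher in RA-responsive-like over mitotic-like, 2 higher and 1 lower in meiotic-like over RA-responsive-like, and 1 higher and 6 lower in oogenesis-like over meiotic-like cells. Except for the 6 lower, these counts were near the shares of all genes, 6.92 and 3.94%, 5.43 and 3.99%, and 8.01 and 10.7% higher and lower. The first were CDKN2D at 148 against 27.4 CPM and CCNE1, the other cyclin E, at 46.3 against 15.4 CPM. CDKN1A, an inhibitor of cyclin-dependent kinases that was picked after its values were seen, was 3.4 to 9.24 CPM in the germ cell steps and 33.3 to 170 CPM in the somatic classes other than erythroid-like cells, at 3.45 CPM. CDKN1B, another inhibitor, was 50.4 CPM in meiotic-like and higher, at 142 CPM, in oogenesis-like cells. RB1, the retinoblastoma protein that holds E2F factors, was 88.3 CPM in meiotic-like and 11.5 CPM in oogenesis-like cells.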

How the data were processed

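Whole fetal ovaries were measured by droplet single-cell RNA sequencing, with 1 library from the pair of ovaries of each of 2 fetuses. The deposited table holds raw counts of UMIs for each gene in each cell. The authors obtained them with Cell Ranger 3.0.2, and Seurat is also named in the submitters' processing notes. It keeps cells of at least 200 genes and genes of at least 3 cells. The barcode endings were not tied to a stage by any label, so no comparison of stages was made. With no replicate, no p-value was computed.

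Seurat 5.3.0 in R 4.3.3 clustered the cells on 2000 variable genes without 172 listed genes of the cell cycle, with 18 principal components, 20 neighbours and a resolution of 0.6, and germ cells were clustered again the same way. A cluster took the name of the cell type with most markers, at least 3, that were at least 1.5-fold higher than in all other cells and found in at least 5% of its cells. A tie stayed unnamed, as did a cluster whose 10 leading genes went against the name and a name resting on under 5 markers with none among those genes. So did a cluster with no marker leading that was far shallower than all cells of its most frequent barcode ending. Counts were summed per group and scaled to CPM with numpy 2.4.6, pandas 2.3.3 and scipy 1.17.1 under Python 3.11.15. Intervals are exact Poisson for levels, exact conditional binomial for ratios and Clopper-Pearson for shares, except that of the difference of shares, which is a normal approximation. Genes with at least 20 UMIs in the groups compared were counted as changed at 2-fold with 10 CPM added. All members are named, the 2 with most UMIs of each role in every group, and other lists by counts and leading genes. Doublets were scored by Scrublet in scanpy 1.11.5, and as it called 0 cells, an alternative left out the 8% with the highest scores, 850 and 828 cells of the endings. Alternatives that leave out cells clustered the rest anew. Plots were drawn with matplotlib 3.10.9. The scripts were tested on simulated data. Promoter motifs were not analysed here. The members, lists and tests were chosen with earlier results of these data known.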

Additional observations from a re-analysis of the deposited data

How the results depend on the processing

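None of the values below changed sign under an alternative. The log2 ratios of list levels moved most between mitotic-like and meiotic-like cells, where 254 cells of nearly 1 batch make the first group in the main run. Alternatives that cluster anew compare differently drawn groups. The mitotic-like group then held 81 cells with at most 3000 genes, 379 at resolution 1.0, 612 with 30 principal components and 422 without the highest Scrublet scores. Granulosa-like cells went from 4829 to 2709 at resolution 0.4 and to 2632 with at most 20% mitochondrial UMIs. The S phase ratio of mitotic-like over meiotic-like cells, -0.76, became -1.04 with cells of at most 3000 genes, -0.87 at resolution 1.0, -0.48 with 30 principal components, -0.86 as the mean of single cells, -0.59 with each member weighted alike and -0.53 without the 8% of cells of highest Scrublet score. The mitotic ratio, -0.68, became -1.25, -0.93, -0.61, -0.95, -0.49 and -0.63 under the same alternatives, -0.77 with cell cycle genes kept in the clustering and -0.84 in ending 1 alone. For RA-responsive-like over meiotic-like cells the S phase ratio, 0.44, became 0.29 as the mean of single cells, 0.31 with equal weights, 0.38 in ending 1 and 0.56 in ending 2. The mitotic ratio, 0.39, became 0.06 with cells of at most 3000 genes, 0.41 with cells of at most 20% mitochondrial UMIs and with 30 principal components, 0.42 with cell cycle genes kept, 0.20 as the mean of single cells, 0.54 with equal weights, 0.26 in ending 1 and 0.54 in ending 2. For granulosa-like over stroma-like cells the S phase ratio, -0.47, became -0.33 with cells of at most 3000 genes, -0.30 with cells of at most 20% mitochondrial UMIs, -0.31 at resolution 0.4 and with 30 principal components, -0.37 as the mean of single cells, -0.29 with equal weights and without the highest Scrublet scores, -0.32 in ending 1 and -0.60 in ending 2. The mitotic ratio, -0.56, became -0.22 with cells of at most 3000 genes, -0.16 with the mitochondrial limit, -0.18 at resolution 0.4, -0.26 with 30 components, -0.31 as the mean of single cells, -0.40 with equal weights, -0.34 without the highest Scrublet scores and -0.73 with cell cycle genes kept.

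The difference in mitotic share between RA-responsive-like and oogenesis-like cells, 15.4 points, became 16.6 with cells of at most 20% mitochondrial UMIs, 16.2 as the mean of single cells and 11.3 in ending 2. Thinning to 2000 UMIs gave 79.7% of RA-responsive-like and 5.49% of stroma-like cells with at least 5 mitotic UMIs, and no thinning 88.8% and 13.7%, in place of 49.6% and 3.3%. At 2000 UMIs meiotic-like cells, with 85.4%, were above RA-responsive-like cells, the reverse of the order at 1000 UMIs. With 1 CPM added, members past the fold went from 3 to 9 for granulosa-like over stroma-like and from 2 to 12 for surface epithelium-like over granulosa-like cells. No share over all genes is given for that setting. With cells of at most 3000 genes there was 1 in each, and without the highest Scrublet scores 1 in the former. These counts over cells of at most 3000 genes and without the highest scores were added after the data were seen. The cause of the moves was not tested. Ending 2 gave no ratio for mitotic-like cells, with 3 cells, ending 1 gave no share for oogenesis-like cells, with 21, and equal weights do not apply to the share. No paired analysis was possible because the labels give each stage 1 sample and the columns carry no replicate number. Depth limits genes such as TK1 and FEN1, and 1 fetus per stage limits every comparison.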
